A study of Mus musculus with 7 samples.

Results

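Accessible chromatin was examined at 3 forkhead transcription factor genes, Foxo1, Foxo3 and Foxp1, in mouse B-lineage cells, using 7 libraries made by ATAC-seq. The genes were chosen by name, and their members were all peaks that overlapped the gene body or the 30 kb on either side of it. These windows held 931 of the 647973 peaks in the 7 peak lists, and merging overlapping peaks of all lists gave 196 of 145247 regions. Foxp1 contributed 137 regions, Foxo1 33 and Foxo3 26. All 3 genes had promoter peaks in every list.

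In ATAC-seq, fragments are recovered preferentially where chromatin is open, and a peak marks a place where they pile up above that library's background. WT cells were sorted from Ergfl/fl mice, which carried no Cre, as pre-proB, then proB, then preB cells, the order in which B cells develop. Erg KO pre-proB cells came from Rag1CreT/+;Ergdelta/delta mice, in which Rag1Cre, active from the common lymphoid progenitor onward, had deleted the floxed alleles of Erg, an ETS-family transcription factor gene. Rescue cells came from Rag1CreT/+;Ergdelta/delta;IgHVH10tar mice, which have this deletion plus a rearranged immunoglobulin heavy chain allele, and were titled pre-proB, proB and preB. WT mice lacked the Cre that all Erg-deficient mice carried, and no library with the heavy chain allele and intact Erg was analysed here, so Cre cannot be told apart from the Erg deletion in any comparison with WT, and the allele in those of Rescue with WT. The titles of the Rescue libraries set their stage here, although each source name disagreed (the library titled pre-proB was sourced as proB, that titled proB as preB, and that titled preB as pre-proB). Of all regions with a peak in WT pre-proB alone among the WT stages, 94.0% had one in the library titled pre-proB. Only 9.91% had one in the library titled preB, so by this measure the former was more like WT pre-proB. Ages, sexes and pooling of mice were not given per library.

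Each of the 7 groups was 1 library, so no difference between groups could be tested, and every value below compares libraries. Lists held between 76465 and 105649 peaks, the background pileup was between 3.49 and 4.60 fragments, and the lowest summit pileup that was called was 10 to 12 fragments. Accessibility is given as the fold over background at the summit, (pileup + 1) / (background pileup + 1), and intervals are exact 95% binomial (Clopper-Pearson) intervals that cover counting error only. The study names exon 4 of Erg as the deleted part, and the deletion was not checked in these lists. Erg had 2 or 3 promoter peaks in every library, which check nothing about that exon. In bulk samples, fewer cells with an open site and a less open site in each cell cannot be told apart.

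Foxo1 and Foxo3 are transcription factors held out of the nucleus when PI3K-Akt signalling phosphorylates them, and they return to the nucleus and activate their targets when that signal falls. Foxo1 is required for early B-cell development, where it acts with E2A and EBF1 and sustains Il7r and the Rag genes. Foxo3 is a closely related factor known for cell cycle arrest and survival control. Foxp1 belongs to another forkhead branch, acts mainly as a repressor, and is also needed for the passage of early B-cell progenitors.

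Foxo1 (ENSMUSG00000044167) lies on the plus strand at chr3:52268336-52353221 of GRCm38, spans 84.9 kb and has 3 exons. Foxo3 (ENSMUSG00000048756) lies on the minus strand at chr10:42181841-42276755, spans 94.9 kb and has 4 exons in its longest annotated transcript. Foxp1 (ENSMUSG00000030067) lies on the minus strand at chr6:98925338-99522721, spans 597.4 kb, has 20 exons in its longest transcript and starts at 5 separate sites. Regions are named by their distance in kb from the start of the longest transcript, positive in the direction of transcription. The Foxo1 window also holds the antisense gene Gm20402 at the promoter, and the Foxp1 window overlaps Gm20696 and Gm20705, so peaks there cannot be assigned to 1 gene by position.

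7 sequences carry the main patterns and are shown 5′ to 3′ on the plus strand of GRCm38. Those of the regions are the 300 bp centred on the summit, and the promoter of Foxo1 is the RefSeq (GRCm38.p6) sequence up to the base before the GENCODE start. Capitals mark matches, on either strand, to the EBF1 palindrome TCCCNNGGGA, the E-box CAGCTG or the RUNX letters TGTGGTT, and in the promoter they mark the EBF1 palindrome alone. Sequences without capitals hold none of these 3 patterns. First comes the region upstream of Foxo1 that was high in all pre-proB lists (chr3:52264017-52264316):
Foxo1 -4.2 kb: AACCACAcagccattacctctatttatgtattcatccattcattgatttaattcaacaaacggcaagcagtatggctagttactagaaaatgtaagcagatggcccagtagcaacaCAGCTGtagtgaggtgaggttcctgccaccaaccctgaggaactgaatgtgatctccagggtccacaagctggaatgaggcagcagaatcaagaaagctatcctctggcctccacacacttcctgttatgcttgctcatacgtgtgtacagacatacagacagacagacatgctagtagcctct
The next 2 are the Foxo1 promoter (chr3:52268087-52268335) and a first-intron region (chr3:52282852-52283151) found in the proB and preB lists, which both hold the EBF1 palindrome:
Foxo1 promoter: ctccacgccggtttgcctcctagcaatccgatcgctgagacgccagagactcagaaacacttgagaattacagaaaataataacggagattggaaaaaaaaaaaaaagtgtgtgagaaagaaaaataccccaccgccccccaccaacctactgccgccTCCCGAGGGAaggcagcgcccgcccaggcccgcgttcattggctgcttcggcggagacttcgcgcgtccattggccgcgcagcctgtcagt
Foxo1 +14.7 kb: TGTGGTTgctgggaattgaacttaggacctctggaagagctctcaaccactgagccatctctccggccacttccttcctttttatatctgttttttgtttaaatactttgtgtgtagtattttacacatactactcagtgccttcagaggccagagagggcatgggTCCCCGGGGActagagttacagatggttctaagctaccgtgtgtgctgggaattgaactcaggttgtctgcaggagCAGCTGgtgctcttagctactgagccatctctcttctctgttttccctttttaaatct
The Foxo3 region with the largest rise from WT pre-proB to WT proB is in intron 3 (chr10:42188342-42188641):
Foxo3 +88.3 kb: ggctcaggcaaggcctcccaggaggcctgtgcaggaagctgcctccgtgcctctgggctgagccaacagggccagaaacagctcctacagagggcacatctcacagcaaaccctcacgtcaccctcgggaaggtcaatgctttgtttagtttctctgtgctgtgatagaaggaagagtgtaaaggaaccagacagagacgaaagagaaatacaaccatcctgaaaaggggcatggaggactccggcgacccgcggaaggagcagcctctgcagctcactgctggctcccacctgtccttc
At Foxp1, the largest rise was in intron 2 (chr6:99350618-99350917), the highest peak lost between the same stages was in intron 3 (chr6:99278297-99278596), and the highest gained region with an EBF1 palindrome was in intron 4 (chr6:99231750-99232049):
Foxp1 +170.2 kb: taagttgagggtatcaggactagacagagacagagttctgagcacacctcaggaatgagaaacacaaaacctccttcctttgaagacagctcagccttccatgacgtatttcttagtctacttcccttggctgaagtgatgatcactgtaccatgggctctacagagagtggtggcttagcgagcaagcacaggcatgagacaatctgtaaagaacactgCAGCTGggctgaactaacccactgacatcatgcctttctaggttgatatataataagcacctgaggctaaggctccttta
Foxp1 +242.6 kb: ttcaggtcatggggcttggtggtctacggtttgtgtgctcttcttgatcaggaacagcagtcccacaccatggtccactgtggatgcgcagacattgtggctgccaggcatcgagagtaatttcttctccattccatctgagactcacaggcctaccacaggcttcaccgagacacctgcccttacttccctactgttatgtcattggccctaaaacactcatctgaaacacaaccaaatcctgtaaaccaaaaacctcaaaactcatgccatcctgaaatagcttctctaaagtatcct
Foxp1 +289.1 kb: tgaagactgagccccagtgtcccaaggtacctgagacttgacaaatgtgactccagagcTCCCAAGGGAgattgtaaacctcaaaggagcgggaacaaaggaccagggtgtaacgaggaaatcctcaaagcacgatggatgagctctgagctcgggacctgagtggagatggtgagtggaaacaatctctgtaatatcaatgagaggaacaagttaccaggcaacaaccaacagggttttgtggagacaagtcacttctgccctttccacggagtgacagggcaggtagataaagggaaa

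Foxo1, Foxo3 and Foxp1 were denser in peaks than 66.9 to 93.0% of coding genes, depending on gene and list. Foxo1 had 20, 24 and 21 peaks in WT pre-proB, proB and preB, 20 with Erg KO, and 22, 22 and 21 across Rescue stages. Foxo3 had 22, 16 and 12 peaks in the WT stages, 19 with Erg KO, and 19, 15 and 13 in the Rescue stages. Foxo3 thus had its most peaks in the 3 pre-proB lists, which also hold more peaks overall than the later lists, while the other 2 genes had no such order. Foxp1 had 93, 91 and 89 peaks in the WT stages, 96 with Erg KO, and 100, 98 and 98 in the Rescue stages. Per 100 kb of window this came to 7.75 peaks for Foxo3 in WT preB at the lowest and 16.6 for Foxo1 in WT proB at the highest, beside medians of 4.94 to 6.96 over 21938 coding genes with the same flanks.

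**Figure D1:**
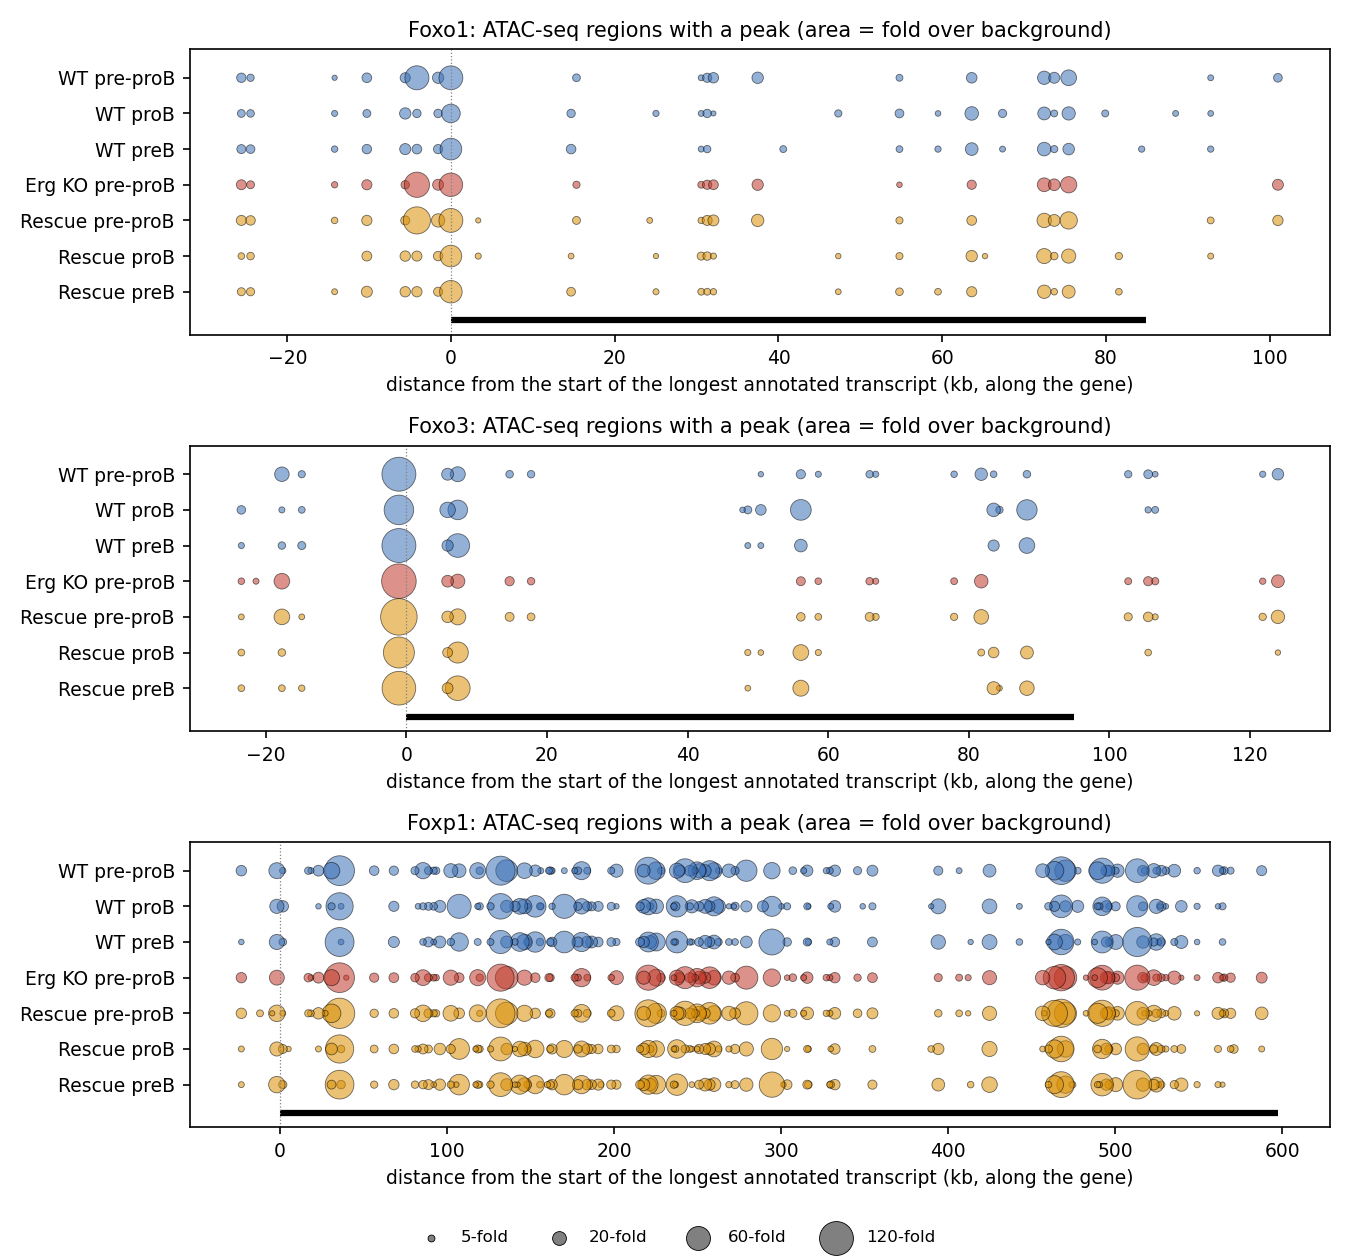
Regions with a peak at Foxo1, Foxo3 and Foxp1 in each of the 7 libraries (rows), by distance from the start of the longest annotated transcript in kb along the gene. Circle area is the fold over background, and the black bar is the gene body. Foxo3 has its largest circle at the promoter in every row (91.4- to 140-fold), and the Foxo1 -4.2 kb circle is large only in the pre-proB rows (60.5- to 77.2-fold).

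Across the 3 genes 63 of 196 regions had a peak in all lists, 14 at Foxo1, 5 at Foxo3 and 44 at Foxp1. The share over all regions was 32.0%, close to the 32.1% of the 3 genes together. A peak in all 3 WT stages was found at 16 of 33 Foxo1 regions (48.5%, interval 30.8 to 66.5%), 9 of 26 Foxo3 regions (34.6%, 17.2 to 55.7%) and 53 of 137 Foxp1 regions (38.7%, 30.5 to 47.4%), beside 35.0% of all regions.

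The promoters were open throughout. The Foxo1 promoter region (chr3:52267228-52270922) had a fold of 59.7, 36.6 and 49.3 across the WT stages, 57.7 with Erg KO, and 59.9, 49.0 and 53.0 across the Rescue stages. WT proB was the lowest of the 7 libraries and the 3 pre-proB libraries were the highest. On the log2 scale its fold fell by 0.71 from WT pre-proB to WT proB (interval -0.98 to -0.45), beside a median of -0.07 over the 59510 regions with a peak in both lists. Of these shared regions, 22.4% had a lower ratio. From Rescue pre-proB to Rescue proB the promoter changed by -0.29 (-0.54 to -0.04), close to the median of -0.30. The promoter fold fell by 0.05 from WT pre-proB to Erg KO pre-proB (-0.28 to 0.18, median over all regions 0.06). The EBF1 palindrome in the printed promoter begins at base 159, which is 91 bp before the GENCODE start, and 0.904% of 32851 RefSeq promoters of 300 bp hold this pattern.

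Foxo3 had the strongest promoter of the 3 genes. Its region (chr10:42273574-42278802) had a fold of 121, 91.4 and 121 in the WT stages, 126 with Erg KO, and 140, 101 and 119 in the Rescue stages, the highest fold of its window in every library. WT proB and Rescue proB were the lowest 2 values. From WT pre-proB to Erg KO pre-proB its log2 fold differed by 0.06 (-0.10 to 0.21), which is no more than counting error.

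Foxp1 had promoter regions at 4 of its 5 start sites. The start of the longest transcript (-1.8 kb, chr6:99519908-99524195) had a fold of 26.8, 21 and 24.1 in the WT stages, 23.5 with Erg KO, and 28.8, 20.9 and 28.5 in the Rescue stages. The internal start 492.2 kb downstream, in intron 6 (chr6:99026802-99029298), had the highest promoter folds, at 66.5, 36.4 and 50.2 in WT, 64.5 with Erg KO, and 71.8, 39.4 and 53.2 in Rescue. Both starts were open at all stages. The start 254.5 kb downstream, in intron 3 (chr6:99265167-99267032), ranged from 10.9 in Rescue pre-proB to 20.5 in WT proB. No peak lay within 1000 bp of the start at base 99163018 of chromosome 6 in any list.

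The Foxp1 start 85.7 kb downstream (chr6:99434993-99435656), at exon 2, was high at 1 stage. Its fold was 27.7, 5.35 and 4.60 in WT pre-proB, proB and preB, 26.2 with Erg KO, and 29.0, 10.5 and 7.43 in Rescue pre-proB, proB and preB. The 3 pre-proB libraries did not overlap the 4 later ones. The share of all regions that separate in this way was not counted, but 11.5% of them had a peak in the 3 pre-proB lists alone. From WT pre-proB to WT proB the fold fell by 2.37 on the log2 scale (-3.05 to -1.82), a change lower than in all but 3.98% of regions shared by these lists. From Rescue pre-proB to Rescue proB it fell by 1.47 (-2.00 to -1.01), lower than in all but 15.8% of shared regions.

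Stages were compared first in WT cells. Of the WT pre-proB peaks, 34.1% over the genome had no overlapping WT proB peak, against 3 of 20 at Foxo1 (15.0%, 3.21 to 37.9%), 10 of 22 at Foxo3 (45.5%, 24.4 to 67.8%) and 29 of 93 at Foxp1 (31.2%, 22 to 41.6%). In the other direction 31.9% of all WT proB peaks had no WT pre-proB peak, against 7 of 24 at Foxo1 (29.2%, 12.6 to 51.1%), 4 of 16 at Foxo3 (25%, 7.27 to 52.4%) and 29 of 91 at Foxp1 (31.9%, 22.5 to 42.5%). All 6 intervals included the genome-wide share.

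The step from proB to preB was smaller. WT proB peaks had no WT preB peak in 26.7% of all cases, in 5 of 24 at Foxo1 (20.8%, 7.13 to 42.2%), 4 of 16 at Foxo3 (25%, 7.27 to 52.4%) and 16 of 91 at Foxp1 (17.6%, 10.4 to 27.0%). WT preB peaks had no WT proB peak in 10.7% of all cases, in 2 of 21 at Foxo1 (9.52%, 1.17 to 30.4%), 0 of 12 at Foxo3 (0 to 26.5%) and 9 of 89 at Foxp1 (10.1%, 4.73 to 18.3%). With the full lists, these shares were also within counting error of the background. With lists cut to the shortest length, the Foxp1 share of WT proB peaks without a WT preB peak was lower, as given in the last section, beside 18.6% of all peaks.

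**Figure D2:**
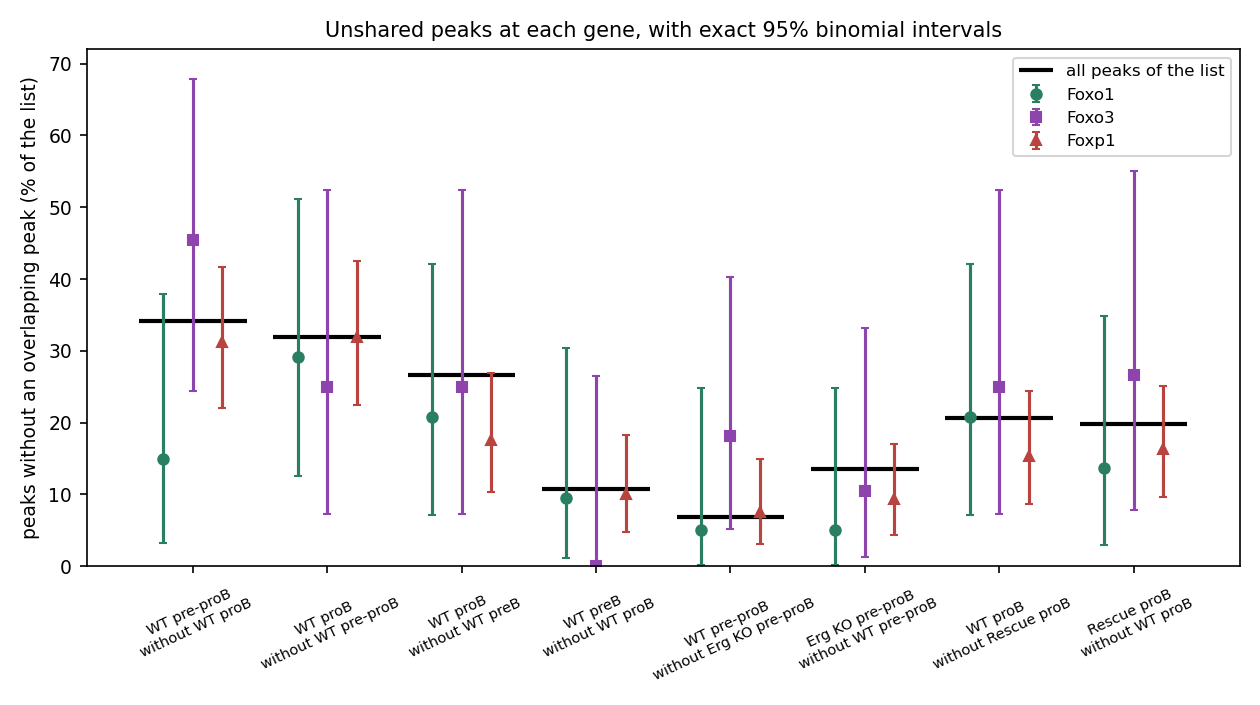
Peaks without an overlapping peak in the other list, as a percentage of the peaks of the first list, for Foxo1 (circles), Foxo3 (squares) and Foxp1 (triangles) in 8 comparisons, with exact 95% binomial intervals. Black bars are the shares over all peaks of the list, and they lie inside the interval of every point, as with the 6.88% for WT pre-proB without Erg KO.

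Regions open at the WT pre-proB stage alone made up the highest share at Foxo3, and its interval lies just above the share of all regions. That interval does not allow for the number of patterns and genes looked at. The interval of the related share of Foxo3 peaks given above (24.4 to 67.8%) included its background of 34.1%. They made up 10 of 26 Foxo3 regions (38.5%, 20.2 to 59.4%), 3 of 33 Foxo1 regions (9.09%, 1.92 to 24.3%) and 23 of 137 Foxp1 regions (16.8%, 11.0 to 24.1%), beside 19.8% of all regions. Regions open at both the proB and preB stages but not before made up 24 of 196 (12.2%, 8.01 to 17.7%), beside 9.19% of all regions, and those open in WT proB alone 15 of 196 (7.65%, 4.35 to 12.3%), beside 10%. Foxp1 held 19 of the 24 regions shared by proB and preB.

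Among regions with a peak at both stages, the fold was at least 2 times as high in WT proB as in WT pre-proB at 12 of 88 member regions (13.6%, background 13.8%). It was at most 0.5 times as high at 23 of 88 (26.1%), which is above the background of 16.0%. Foxo1 had 0 rises and 3 falls of 17 regions, Foxo3 4 rises and 1 fall of 11, and Foxp1 8 rises and 19 falls (31.7%) of 60. From WT proB to WT preB the corresponding counts were 4 rises (background 5.18%) and 7 falls (background 8.53%) of 102 regions.

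At Foxo1 the largest stage change was at the -4.2 kb region (chr3:52263677-52264692). Its fold was 60.5 at the WT pre-proB stage and 7.38 and 9.86 later, 66.7 with Erg KO, and 77.2, 10.7 and 11.1 across the Rescue stages. All 3 pre-proB libraries exceeded all 4 later ones, a separation whose share over all regions was not counted. The log2 fold fell by 3.03 from WT pre-proB to WT proB (-3.59 to -2.58), lower than in all but 1.78% of shared regions, and differed by 0.14 between WT and Erg KO pre-proB (-0.08 to 0.36). The rank and interval of the fall do not allow for its choice as the largest change at Foxo1. The -1.6 kb region, nearer to the promoter, had folds of 13.4, 7.57 and 8.99 in the WT stages.

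Within intron 1 of Foxo1, the +37.5 kb region (chr3:52305482-52306059) was seen in the pre-proB lists alone. Its fold was 13.8 in WT, 13.4 in Erg KO and 16.1 in Rescue, with no peak in the 4 later lists. The printed +14.7 kb region (chr3:52282788-52283199) had the opposite pattern, with no pre-proB peak and folds of 7.38 in WT proB, 9.64 in WT preB, 3.56 in Rescue proB and 8.05 in Rescue preB. The neighbouring regions near the 3′ end of the same intron, at +72.5 kb and +75.4 kb, were open in every list, with folds of 17.4 to 23.8 and of 14.0 to 31.5.

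At Foxo3 some regions inside the gene rose from pre-proB to proB while the upstream -17.7 kb region fell, but position did not separate rises from falls. The +81.8 kb region in intron 3 had pre-proB folds of 16.3 (WT), 19.2 (Erg KO) and 22.5 (Rescue). It had 5.12 in Rescue proB and no peak in WT proB, WT preB or Rescue preB. The upstream -23.4 kb region had no WT pre-proB peak and a fold of 7.75 in WT proB, with 4.58 in Erg KO and 3.57 in Rescue pre-proB. The +7.3 kb region in intron 2 (chr10:42268971-42270187) had a fold of 23.5, 40.2 and 58.5 in the WT stages, 21.1 with Erg KO, and 27.0, 46.6 and 63.7 in the Rescue stages. It rose stage by stage in both WT and Rescue. The +56.1 kb region (chr10:42219931-42221089) had a fold of 8.92, 45.0 and 16.9 in WT, 8.43 with Erg KO, and 7.68, 26.1 and 26.8 in Rescue, so that WT proB was the highest library. The -17.7 kb region (chr10:42293394-42295440) was high in the 3 pre-proB libraries (22.1 in WT, 25.8 in Erg KO and 25.7 in Rescue) and between 3.88 and 6.01 in the 4 later ones. Regions open in the 3 pre-proB lists and no other made up 7 of 26 at Foxo3 (26.9%, 11.6 to 47.8%) and 26 of 196 at the 3 genes (13.3%), beside 11.5% of all regions, and the Foxo3 interval lies just above that share. The 7 are among the 10 Foxo3 regions open in WT pre-proB alone, so this share is not a separate result.

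At Foxp1 the +242.6 kb region in intron 3 (chr6:99278024-99278889) was the highest WT pre-proB peak without a WT proB peak. The pre-proB folds were 59.5 (WT), 50.8 (Erg KO) and 61.7 (Rescue), Rescue proB had 7.13, and no peak was called in WT proB, WT preB or Rescue preB. The +143.6 kb region in intron 2 (chr6:99377074-99377842) was its counterpart, with no pre-proB peak and folds of 26.2 in WT proB, 36.6 in WT preB, 25.2 in Rescue proB and 38.6 in Rescue preB. The strongest constant region, at +35.7 kb in intron 1 (chr6:99484804-99486714), had a fold between 77.5 in WT proB and 96.5 in Rescue pre-proB, and the regions at +132.1 kb and +467.7 kb were open in every list at 56.5 to 88.2 and at 53.9 to 83.3.

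The Erg KO and WT pre-proB lists were far more alike than the stages. Of all WT pre-proB peaks, 6.88% had no Erg KO peak, against 1 of 20 at Foxo1 (5%, 0.127 to 24.9%), 4 of 22 at Foxo3 (18.2%, 5.19 to 40.3%) and 7 of 93 at Foxp1 (7.53%, 3.08 to 14.9%). Of all Erg KO peaks, 13.6% had no WT pre-proB peak, against 1 of 20 at Foxo1 (5%, 0.127 to 24.9%), 2 of 19 at Foxo3 (10.5%, 1.30 to 33.1%) and 9 of 96 at Foxp1 (9.38%, 4.38 to 17.1%). All 36 regions of the 3 genes that were open in WT pre-proB alone among the WT stages were also open with Erg KO (background 92.2%) and in Rescue pre-proB (background 94.0%).

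Among the 119 member regions with a peak in both the WT and Erg KO pre-proB lists, 0 rose at least 2 times (background 0.280%) and 0 fell to at most 0.5 times (background 0.270%). The largest fall was at the Foxp1 +107.3 kb region in intron 2 (chr6:99413236-99414195). The pre-proB folds were 19.6 (WT), 9.89 (Erg KO) and 12 (Rescue), followed by 60.6 and 35.5 in WT proB and preB, and 45.0 and 44.4 in Rescue proB and preB. Both Erg-deficient pre-proB libraries were below WT pre-proB, and all 4 later libraries were above it. The log2 fold fell by 0.98 from WT to Erg KO pre-proB (-1.51 to -0.50), lower than in all but 0.293% of 84912 shared regions, and by 0.71 to Rescue pre-proB (-1.19 to -0.25). This region was picked as the lowest of 119, and neither its rank nor its interval allows for that choice. They therefore do not single it out.

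A set of 8 regions had a WT pre-proB peak and none in the Erg KO or Rescue pre-proB list. They were 3 regions of Foxo3 and 5 of Foxp1, or 8 of 196 member regions (4.08%) beside 2.36% of all regions. All 8 (interval 63.1 to 100%) also had a peak in WT proB, with a higher fold than in WT pre-proB, and 6 had a peak in Rescue proB. Over all regions, 2392 of 3422 such regions (69.9%) had a WT proB peak, 2255 (65.9%) had a higher fold there, and 1832 (53.5%) had a Rescue proB peak.

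The Foxo3 +88.3 kb region in intron 3 (chr10:42187957-42188976) had a fold of 6.01, 43.6 and 25.9 across the WT stages, no peak in the Erg KO and Rescue pre-proB lists, and 17.4 and 22.1 in Rescue proB and preB. The neighbouring +83.5 kb region (chr10:42192957-42193683) had 4.65, 19.2 and 13.2 in WT, none in the Erg-deficient pre-proB lists, and 11.8 and 17.9 in Rescue proB and preB. Both were open in Rescue cells once these carried the proB or preB title. The Foxp1 +170.2 kb region in intron 2 (chr6:99350279-99351211) had 3.68, 60.9 and 49.3 in WT, none in the Erg-deficient pre-proB lists, and 30.7 and 44.2 in Rescue proB and preB. Its log2 rise of 4.05 from WT pre-proB to WT proB (3.44 to 4.89) was the largest at the 3 genes.

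Among the other 5 regions, Foxo3 +50.4 kb had folds of 3.10, 11.8 and 3.73 in the WT stages and 3.34 in Rescue proB. Foxp1 +477.5 kb had 4.85, 15.3 and 3.95 in the WT stages and no peak in any Erg-deficient list. Foxp1 +262.6 kb had 4.07, 20.5 and 5.92 in the WT stages and 4.45 in Rescue proB. These 3 shared a peak of accessibility in WT proB that was low or absent in Rescue. Foxp1 +162.9 kb had 4.07, 4.25 and 9.64 in WT, then 10.9 and 11.8 in Rescue proB and preB, and Foxp1 +156.1 kb had 3.88 and 4.80 in WT pre-proB and proB alone.

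**Figure D3:**
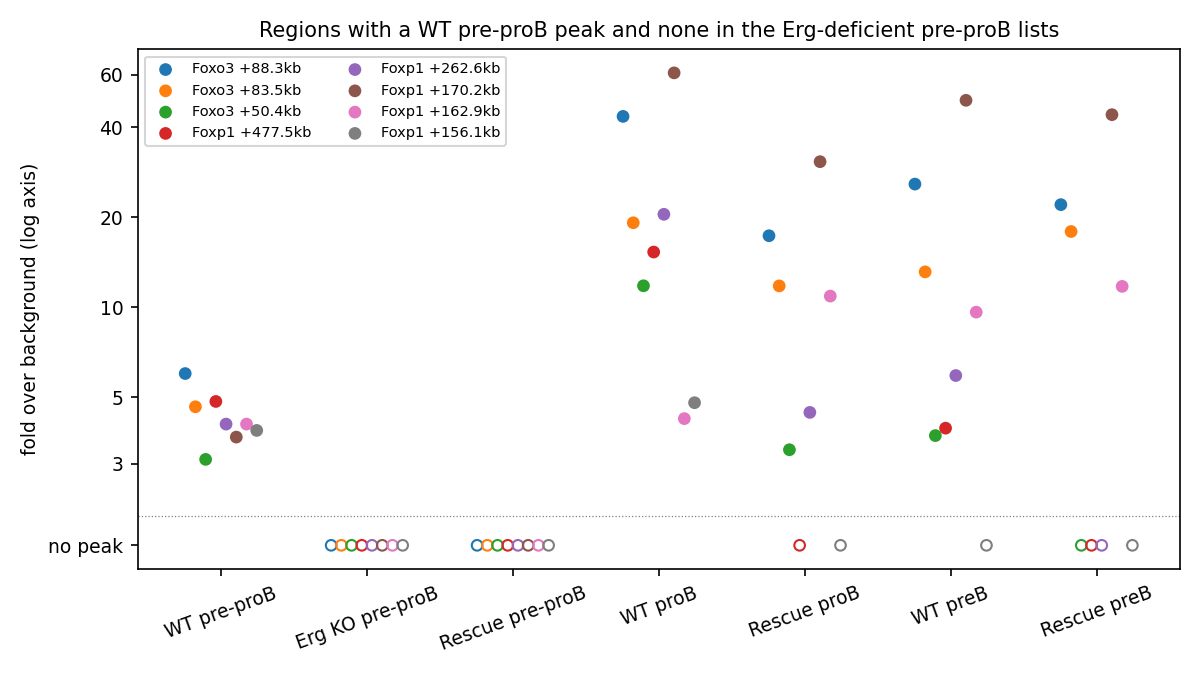
Fold over background on a log axis of the 8 regions of Foxo3 and Foxp1 that had a peak in WT pre-proB and none in the Erg KO and Rescue pre-proB lists, in each library. Open circles at the bottom stand for a list without a peak. WT pre-proB folds lie between 3.10 and 6.01, and WT proB folds between 4.25 and 60.9.

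The WT pre-proB peaks at these 8 regions were low, with 15 to 30 fragments at the summit, and their median rank was at the 11.9th percentile of the list. With all lists cut to the length of the shortest, 7 member peaks were without an Erg-deficient counterpart and 3 of them were among the original 8. With lists of 0.5 of that length the counts were 3 and 0, and with a −log10 q of at least 10 they were 4 and 1, so membership of this set changed when the weakest peaks were left out. Of 10 B-lineage marker promoters, 9 were open in the WT pre-proB list, 6 with Erg KO and 7 in the Rescue pre-proB list. Pax5 had a promoter fold of 3.68, Vpreb1 of 8.53 and Cd79a of 11.4 in WT pre-proB, none had a peak in Erg KO pre-proB, and in WT proB they reached 28.1, 55.6 and 80.1. The 6 that kept a peak included Ebf1, at 21.5 in WT and 24.4 with Erg KO. The part of cells at a later stage within the WT pre-proB sort in these 8 regions was not tested.

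Rescue proB differed from WT proB more than the preB pair did. Of all WT proB peaks, 20.6% had no Rescue proB peak, against 5 of 24 at Foxo1 (20.8%, 7.13 to 42.2%), 4 of 16 at Foxo3 (25%, 7.27 to 52.4%) and 14 of 91 at Foxp1 (15.4%, 8.67 to 24.5%). Of all Rescue proB peaks, 19.8% had no WT proB peak, against 3 of 22 at Foxo1 (13.6%, 2.91 to 34.9%), 4 of 15 at Foxo3 (26.7%, 7.79 to 55.1%) and 16 of 98 at Foxp1 (16.3%, 9.63 to 25.2%). The fold was at least 2 times as high in Rescue proB at 4 of 105 shared member regions (background 5.32%) and at most 0.5 times as high at 7 (background 6.52%). Between the preB lists 1 of 103 shared member regions was at least 2 times as high in Rescue (background 3.05%) and 0 were at most 0.5 times as high (background 0.885%).

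Most regions of the later WT stages were open in the later Rescue lists. Of the 24 member regions open in WT proB and preB but not in WT pre-proB, 4 were open with Erg KO (background 13.3%), 3 in Rescue pre-proB (background 15.4%), 20 in Rescue proB (background 76.3%) and 22 in Rescue preB (background 84.9%). Of the 36 regions open in WT pre-proB alone, 10 had a peak in Rescue proB (27.8%, 14.2 to 45.2%, background 30.4%) and 2 in Rescue preB (background 9.91%). Of the 15 regions open in WT proB alone, 5 had a peak in Rescue proB (background 22.4%). With stages read from the source names instead of the titles, the library compared with WT proB is the one titled pre-proB, and Foxp1 then had 32 of 91 WT proB peaks without a Rescue peak (35.2%), beside 31.0% of all WT proB peaks.

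The median shared region of Foxo3 was lower in Rescue proB than in WT proB. The median log2 difference from WT proB to Rescue proB was -0.70 over its 11 shared regions, 0.11 over 19 at Foxo1 and 0.04 over 75 at Foxp1, beside 0.01 over all shared regions. Of the 11 Foxo3 regions, 3 were at most 0.5 times as high in Rescue proB (27.3%, background 6.52%) and 0 at least 2 times as high. The fold of Foxo3 +88.3 kb fell by 1.33 on the log2 scale (-1.73 to -0.96), that of +50.4 kb by 1.82 (-2.85 to -1.05), and that of +5.9 kb by 1.29 (-1.83 to -0.82), from 25.1 to 10.2. These are the largest falls at the gene, and their intervals do not allow for that choice. The Foxo3 promoter did not follow, with a log2 difference of 0.14 (-0.05 to 0.33). The folds of +7.3 kb (40.2 in WT proB and 46.6 in Rescue proB) and -17.7 kb (3.88 and 6.01) were higher in Rescue. From WT preB to Rescue preB, +88.3 kb fell by 0.23 (-0.62 to 0.16), within counting error.

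**Figure D4:**
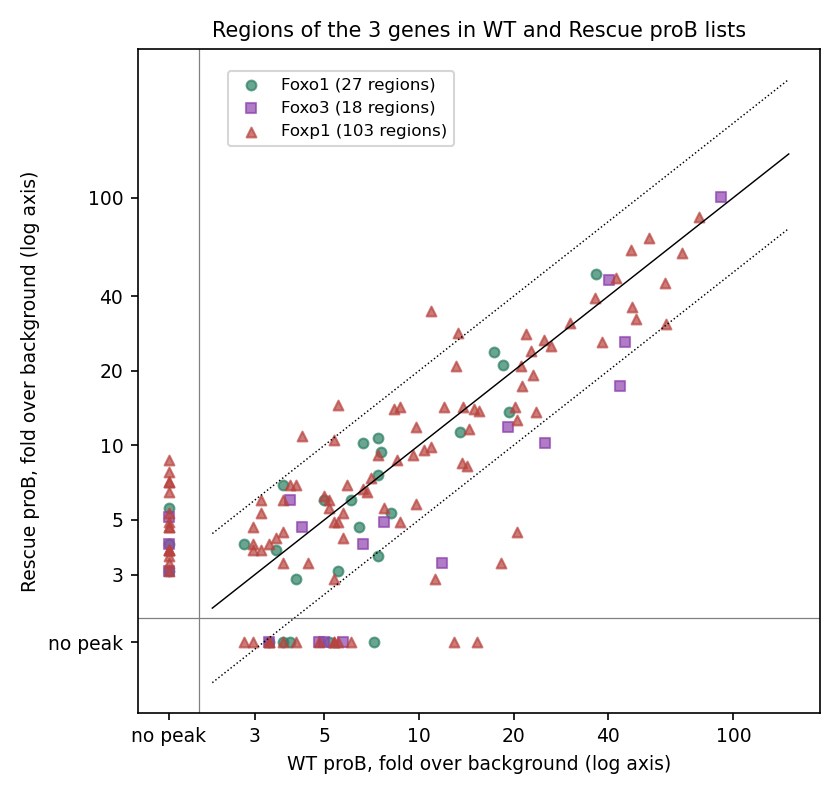
Fold over background in WT proB (x, log axis) and Rescue proB (y, log axis) for the regions of Foxo1, Foxo3 and Foxp1 with a peak in either list, with lists without a peak plotted at the margins. The solid line marks equal folds and the dotted lines a 2 times difference. Foxo3 +88.3 kb lies below the lower dotted line at 43.6 and 17.4.

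Foxp1 also had 4 of 75 shared regions (5.33%) that were at least 2 times as high in Rescue proB, close to the background of 5.32%. The highest of them, +463.6 kb in intron 6 (chr6:99056403-99057785), had a fold of 36.4, 10.9 and 26.1 across the WT stages, 53.1 with Erg KO, and 70.8, 34.7 and 34.2 across the Rescue stages. WT proB was the lowest library there. The others were +30.9 kb, at 5.54 in WT proB and 14.5 in Rescue proB, +162.9 kb, at 4.25 and 10.9, and +470.2 kb, at 13.3 and 28.5.

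A group of 6 regions had a WT proB fold at least 2 times that of every other library, counting a list without a peak at its lowest called fold. The rule was picked with these values in view, and 3.06% of member regions met it beside 3.49% of all regions. The group was Foxo3 +50.4 kb and, at Foxp1, +477.5 kb, +289.1 kb, +262.6 kb, +246.5 kb and +140.7 kb. Foxp1 +289.1 kb (chr6:99231429-99232330) had a peak in WT proB only, at 12.9, and holds the EBF1 palindrome shown above. Foxp1 +246.5 kb (chr6:99274196-99274987) had 18.3 in WT proB, 3.73 in WT preB, 3.34 in Rescue proB and 3.51 in Rescue preB. The same rule was met by 0 member regions for WT pre-proB (background 0.00482%), 1 for WT preB (0.184%), 1 for Rescue proB (0.343%) and 0 for each other list.

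Sequence patterns were counted in the 300 bp around each summit, on both strands. The EBF1 palindrome was present at 5 of the 39 member regions with a WT proB and no WT pre-proB peak (12.8%, 4.30 to 27.4%) and at 0 of the 42 with a WT pre-proB and no WT proB peak (0 to 8.41%). Over all regions the same shares were 5.40% and 0.234%, so the member share lies above the first but its interval includes it. The 5 regions were Foxo1 +14.7 kb and +79.9 kb, Foxo3 +47.8 kb, and Foxp1 +442.6 kb and +289.1 kb, and the sixth match was the Foxo1 promoter. None of the 8 regions missing from the Erg-deficient pre-proB lists held it (0 to 36.9%).

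The forkhead letters TGTTTAC were found at 10 of 196 member regions (5.10%, all regions 3.95%), 9 of them at Foxp1, 1 at Foxo3 and 0 at Foxo1. The ETS letters CCGGAA, the class of site that Erg binds, were found at 10 regions (5.10%, all regions 6.51%). Of the 8 regions missing from the Erg-deficient pre-proB lists, 0 held them (0 to 36.9%), an interval that includes the share of all regions. The E-box CAGCTG, the letters that E2A proteins bind, was present at 15 of 33 Foxo1 regions (45.5%, 28.1 to 63.6%) beside 25.5% of all regions, but at 8 of 26 Foxo3 regions (30.8%, 14.3 to 51.8%) and 22 of 137 Foxp1 regions (16.1%, 10.3 to 23.3%), which lies below that share. The 3 genes together had it at 45 of 196 (23.0%). RUNX letters were found at 31 of 196 (15.8%, all regions 13.5%) and a CCAAT box at 41 (20.9%, all regions 30.3%). A match is a description of letters and not a measured binding site.

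Other genes of the pathway kept their promoter state in all lists, as did the 3 genes. Promoter peaks were present in every list for 11 of 12 other forkhead genes, the exception being Foxp3, the regulator of regulatory T cells, which had none in any list. They were also present in every list for 18 of 18 regulators of Foxo activity, among them the kinase genes Akt1 and Akt2, and for 22 of 22 genes that Foxo1 or Foxp1 is known to bind or regulate in lymphocytes. Most coding genes were also open at the promoter, 58.7% of 21951 in every list and 61.4 to 65.5% in any 1 list. Over the same genes, 1.82% lost their promoter peak between the WT pre-proB and WT proB lists and 4.10% gained one, while 0.506% were open at the promoter in WT but not Erg KO pre-proB cells and 1.48% the reverse. Heights still differed, and the following were picked after their values were seen. Il7r, a receptor chain for the main growth factor of these cells, had a fold of 39.9, 27.3 and 29.6 in WT, 51.9 with Erg KO, and 50.2, 34.3 and 35.1 in Rescue. Ebf1, a B-lineage factor that acts with Foxo1, had 21.5, 58.9 and 51.1 in WT, 24.4 with Erg KO, and 23.6, 48.1 and 43.5 in Rescue.

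Promoters of other lineages were also partly open, and T-cell and NK markers were open least often in the preB lists. These lists also held the fewest peaks and had the lowest shares of all coding genes with a promoter peak. Those shares were 61.4% in WT preB and 63.1% in Rescue preB, beside 63.2 to 65.5% in the other lists. Of 10 T-cell marker promoters, 5, 4 and 2 were open in WT pre-proB, proB and preB, 7 with Erg KO, and 7, 4 and 2 in the Rescue stages, while Cd3e, Cd3d and Zap70 had no peak in any list. NK and innate lymphoid markers counted 7, 6 and 4 of 10 in WT, 7 with Erg KO, and 7, 7 and 3 in Rescue, with Ncr1 and Gzmb at none. Myeloid markers counted 5 of 10 in each WT list and with Erg KO, then 7, 6 and 5 across the Rescue stages, with Elane and Ly6g at none. The 10 plasmacytoid dendritic markers, among them Tcf4, Irf8, Spib and Flt3, were open in all lists, so they do not tell these libraries apart. The part of cells of other lineages in the accessibility of Foxo1, Foxo3 and Foxp1 was not tested.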

How the data were processed

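ATAC-seq was performed by the authors on sorted cells, and 1 peak list per library was deposited. Per the labels and the study's methods, reads were processed with CASAVA 1.8.2 and Picard, aligned to mm10 (GRCm38) with Bowtie2, and called with MACS2, with unstated options. For fragmentation, the methods name sonication but the labels Tn5. The deposited files hold a score (10 times the −log10 q), a fold (a ratio to background), the −log10 p and the −log10 q of each summit. In each library 100% of the deposited folds were whole multiples (tolerance 0.02) of 1 step, from which the pileups at summits and in the background follow. Because these lists hold no read totals, read depth was not analysed here.

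Groups followed the titles. The members and gene lists were chosen with earlier results of these data known. Genes came from GENCODE M21 (basic). Peaks overlapping by at least 1 bp were shared, a promoter peak overlapped the 1000 bp on either side of a start, and all peaks were merged into regions, which can hold several peaks of a list. Named regions were those at promoters, the 3 with the highest median rank per gene, the strongest unshared peak of each of 8 comparisons, those missing from the Erg-deficient pre-proB lists, and others picked after their values were seen. Some genes of the lists are counted but not reported here by name. Ratios of folds carry exact conditional binomial intervals. No test was possible with 1 library per group. The code for overlaps and pileups was tested on simulated data. Python 3.11.15, numpy 2.4.6, pandas 2.3.3 and scipy 1.17.1 were used.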

Additional observations from a re-analysis of the deposited data

Results flagged for a closer look

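Foxo3 +83.5 kb moved in opposite directions from proB to preB, by -0.55 on the log2 scale in WT (19.2 to 13.2) and by 0.60 in Rescue (11.8 to 17.9). Foxp1 +170.2 kb did so too, by -0.30 in WT (60.9 to 49.3) and by 0.52 in Rescue (30.7 to 44.2). Over all shared regions the median change was 0.05 in WT and 0.14 in Rescue. The difference was not tested, since each group had 1 library.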

How the results depend on the processing

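No paired analysis was possible because each group had 1 library and no result came from a test. Of the shares of unshared peaks, 176 values under an alternative stayed within counting error of the reported one and 30 moved beyond it. With lists cut to the shortest length, Foxp1 gave 8.45% of WT proB peaks without a WT preB peak (18.6% of all peaks at that setting), 20.2% in reverse (16.7%), and 4.05% for Erg KO against WT pre-proB (8.34%). With lists cut to 0.5 of that length, the share of WT pre-proB peaks without a WT proB peak was 57.1% at Foxo1 and 44.4% at Foxp1 (36.2% of all), and that of WT preB without WT proB 44.4% at Foxo1 and 19.6% at Foxp1 (16.5%). For WT pre-proB against Erg KO it was then 15.6% at Foxp1 and 0% at Foxo1 and Foxo3 (5.83%), and 0% was also reached by Erg KO without WT pre-proB at Foxo3 and Foxp1 (6.05%), by WT proB without WT preB (17.1%) or Rescue proB (17.4%) at Foxo1, and by Rescue proB without WT proB at Foxo3 (17.1%). With a −log10 q of at least 10, WT preB without WT proB was 0% at Foxo1 (11.4% of all). With a reciprocal overlap of 50%, WT pre-proB without WT proB was 40% at Foxo1 and 52.7% at Foxp1 (47.1% of all), and at Foxp1 the reverse was 51.6% (44.8%), WT proB without WT preB 27.5% (34.2%), the reverse 25.8% (21.1%), WT proB without Rescue proB 26.4% (28.6%) and the reverse 31.6% (28.4%). With summits within 250 bp, Foxp1 gave 41.9% for WT pre-proB without WT proB (39.6% of all), 22.5% for WT preB without WT proB (15.7%) and 26.5% for Rescue proB without WT proB (23.9%). Without the flank, WT pre-proB without Erg KO was 0% at Foxo1 (6.88% of all) and the reverse 0% at Foxo3 (13.6%). With Rescue stages from the source names, Foxp1 gave 35.2% of WT proB peaks without a Rescue peak (31.0% of all) and 37.0% in reverse (40.2%). Foxo1 and Foxo3 had 12 to 24 peaks in the full lists, so their shares in shorter lists, among them 57.1% and 0%, rest on few peaks. Shorter lists and stricter overlap change shares by construction, and the cause of the other changes was not tested. Of the other counts (peaks per window, promoters and motifs), 323 stayed within 1.5 times the reported value and 63 did not.

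The lowest called pileups were 10 to 12 fragments, so WT peaks of 15 to 30 fragments, such as the 8 missing from the Erg-deficient pre-proB lists, lie near the limit of what these lists can show. A member absent from a list is not shown to be closed. The share of WT pre-proB peaks of the 3 genes without either Erg-deficient counterpart was 5.93%, and 3.77 to 6.78% under the 8 alternatives, which were added after the data were seen, beside 4.08% and 3.36 to 7.21% of all WT pre-proB peaks. The peaks behind it changed: of the 8, only 3 were found with lists of equal length, 0 with those of 0.5 of that length and 1 with a −log10 q of at least 10, and 8 under each of the other 5 alternatives.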
